A study of Arabidopsis thaliana with 7 samples.

Results

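The plastid-encoded genes for the photosynthetic apparatus and for the NDH complex were examined in developing seeds of Arabidopsis thaliana. Members were taken by annotation alone, as probe sets naming exactly 1 gene of the plastid chromosome whose symbol starts with psa, psb, pet, atp, rbcL or ndh. This gave 43 genes, each with 1 probe set, out of 13356 genes named alone by a probe set, 22746 probe sets tested and 69 plastid probe sets naming 1 gene. They comprise 5 genes of photosystem I, 15 of photosystem II, 6 of the cytochrome b6f complex, 6 of the ATP synthase, the Rubisco gene rbcL and 10 ndh genes. The probe set for ndhB names both of its copies and was left out by the rule.

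Seeds came from wild-type plants (Col, n = 4 arrays) and from myb5-1 plants (n = 3 arrays), which were grown together on soil in constant light. Per the labels, seeds from globular to walking-stick embryo stages were dissected from siliques, and the series design calls the samples biological replicates. The MYB transcription factor MYB5 is known for its role in seed coat differentiation, and the mutant line is represented by the myb5-1 allele alone. RNA was amplified from an oligo(dT) primer. Plastid messenger RNAs carry no stable poly(A) tail, so these intensities do not measure plastid RNA in the way they measure nuclear transcripts, and how the priming affected them was not tested. Seeds contain embryo, endosperm and seed coat tissue, and in such bulk samples fewer green cells cannot be told apart from less plastid RNA in each cell. Intensities were tested between arrays within a probe set; probes differ in brightness, so a higher intensity for one gene than for another does not show a higher transcript level.

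As background, photosystem II splits water and passes electrons through the cytochrome b6f complex to photosystem I, and the proton gradient built on the way drives the ATP synthase. Rubisco fixes carbon dioxide. The NDH complex returns electrons from ferredoxin to the plastoquinone pool and takes part in cyclic electron flow around photosystem I. Arabidopsis embryos turn green during their growth and lose their green colour again as the seed matures. Plastid genes are read by a bacterial-type RNA polymerase encoded in the plastid, which is known to serve the photosystem genes above all, and by a phage-type polymerase encoded in the nucleus, which is known to serve many genes of the plastid's own gene expression machinery. Most plastid genes lie in operons, so neighbouring members can share a transcript and are not independent.

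The arrays differed more along another line than by genotype. The first principal component of all probe sets held 56.8% of the variance and set myb5 replicate 1 with wild-type replicates 1 and 2 apart from the other 4 arrays. The genes of the late seed maturation list fall along this line. The list was known from earlier results of these data to differ between arrays, so it adds no independent observation. Of its 14 genes present in the gene table, 2 were measured, the storage protein gene PAP85 and the oleosin gene OLEO3, and their mean normalized log2 level ran from 10.47 to 11.55 in the 3 arrays and from 7.18 to 7.81 in the other 4. Of 4 measured seed coat markers, 2 were lower in all 3 arrays than in the other 4, where 13.8% of all probe sets were, namely BAN and DFR, tannin pathway genes. The measured endosperm markers AGL62 and IKU2 and the embryo marker CLV3 stayed below an intensity of 18 in every array, and the fruit wall marker ALC ran from 49.3 to 70.9 in the 3 arrays and from 78.1 to 120 in the others. Of 5 control pairs for the 5′ and 3′ ends of Arabidopsis transcripts, 1 also followed the line, where the GAPDH ratio of 5′ to 3′ signal was 0.0809 to 0.0934 in the other 4 and between 0.156 and 0.208 in these 3. Another GAPDH pair had ratios between 0.552 and 0.632 in wild type and between 0.495 and 0.516 in myb5. The part of these differences in the results below was not tested. The counts over all members, the medians by complex and the differences of the genes described most closely are therefore also given with a term in the fit for the 3 arrays, which were singled out from the data and are not a group of the study.

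**Figure D1:**
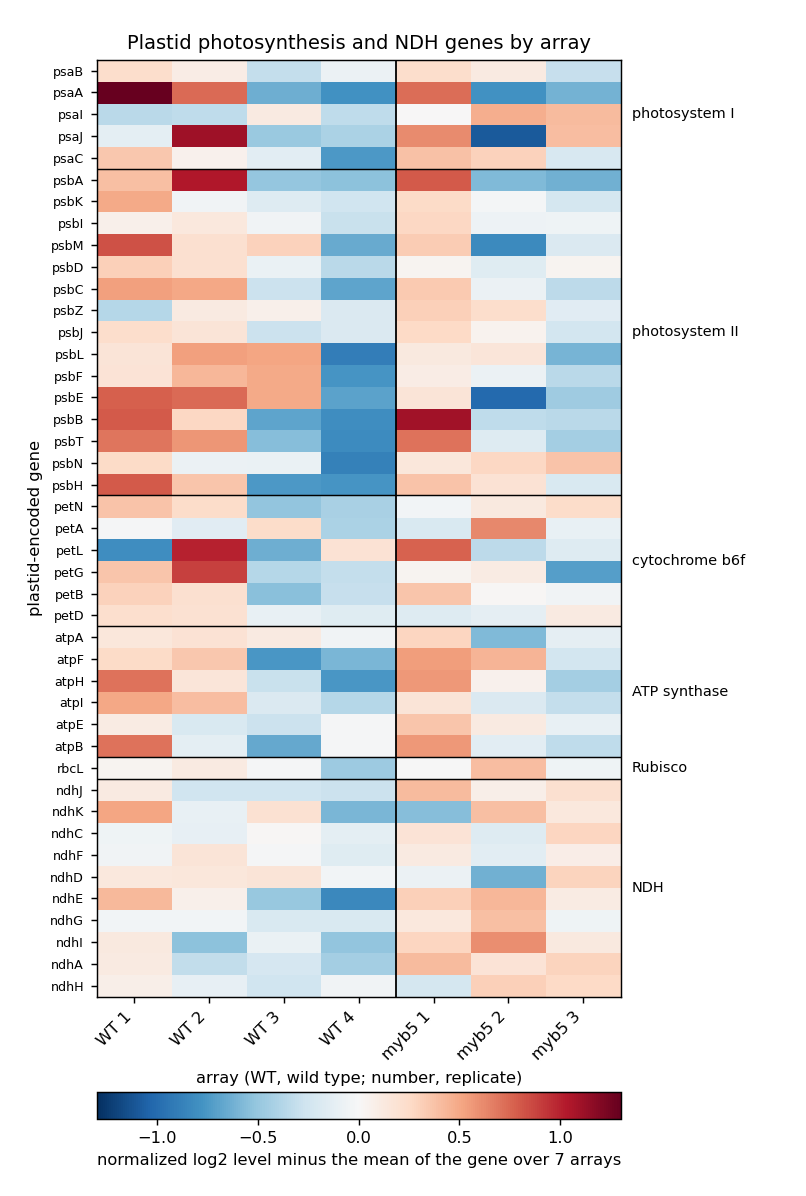
Normalized log2 level of each of the 43 genes in each of the 7 arrays, shown as the deviation from that gene's mean over all arrays (columns, arrays; rows, genes by complex; red, above the mean; blue, below it). Many photosystem II and ATP synthase genes are red in WT 1, WT 2 and myb5 1, while several ndh genes are red in the myb5 arrays; no member passed the test between genotypes.

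In photosystem II, the complex that splits water, 8 of 15 genes separated the 3 arrays from the others. These 8 were higher in all of those 3 arrays than in all of the other 4, where 11.6% of all probe sets were, and 0 of the 15 were lower, where 13.8% of all were. Between the genotypes 0 of the 15 were without overlap, where 2.18% of all probe sets were higher in myb5 and 2.17% lower. Differences between genotypes had a median of -0.01 on the normalized log2 scale, with 7 genes above 0 and 8 below. None passed the threshold in limma, and 0 had an unadjusted p under 0.05, where 1.8% of all were higher and 1.66% lower. With shares this small, 0 of 15 is not a result about these genes.

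The gene psbA encodes the D1 protein of the reaction centre, which is replaced continually in the light. Its intensity was 829, 1358, 435 and 430 in wild-type replicates 1 to 4 and 1106, 412 and 402 in myb5 replicates 1 to 3. The 3 arrays named above are high and the other 4 are alike in both genotypes. The log2 difference between genotypes was -0.23 ± 0.50 (SE; limma adjusted p = 1.00), and with the term for the 3 arrays it was -0.014. The psbB gene, for the core antenna protein CP47, had an intensity of 515, 339, 171 and 159 in wild type and of 619, 224 and 223 in myb5. Within the 3 arrays and within the other 4, the myb5 arrays of psbB lay above the wild-type arrays, and the term for the 3 arrays moved its log2 difference from 0.24 (standard error 0.51) to 0.47 (standard error 0.15, limma adjusted p = 0.91). These and the other members described outside the naming rule were chosen after their values were seen.

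The gene with the largest genotype difference in photosystem II was psbE, for the alpha subunit of cytochrome b559. Its intensity was 388, 366, 316 and 131 in wild type and 245, 104 and 156 in myb5. Wild-type replicate 4 lay inside the myb5 range and the other wild-type arrays above it. The log2 difference was -0.76 ± 0.42 (SE; limma adjusted p = 1.00), and -0.62 with the term for the 3 arrays. It became -1.11 if wild-type replicate 4 was left out and -0.48 if myb5 replicate 2 was. Its neighbours psbF, for the beta subunit of the same cytochrome, and psbL, a small subunit, share an operon with it. They also had their lowest value in wild-type replicate 4, at 622 and 173, whereas the other wild-type arrays had 1200 to 1514 for psbF and 375 to 485 for psbL. Their log2 differences were -0.19 for both, and the fourth gene of the operon, psbJ, another small subunit, had 0.04. The gene psbM, for a small subunit at the dimer interface, had an intensity of 5901, 4698, 4854 and 2295 in wild type and of 4574, 2085 and 3113 in myb5. The genotypes overlapped, and the log2 difference was -0.40 ± 0.39 (SE; limma adjusted p = 1.00), or -0.28 with the term for the 3 arrays. It ran from -0.69 without myb5 replicate 1 to -0.10 without myb5 replicate 2, and was -0.18 without wild-type replicate 1.

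Photosystem I passes electrons to ferredoxin, and its 5 measured genes did not move alike. Its paired reaction centre subunits are encoded by psaA and psaB, neighbours in 1 operon. The intensity of psaA was 295, 180, 62.7 and 55.3 in wild type and 185, 58.4 and 65.8 in myb5, which is high in the same 3 arrays as psbA. For psaB it was 6318, 7388, 5258 and 5834 in wild type and 6774, 7133 and 4904 in myb5, with no such separation. Between the highest and the lowest array psaA spanned 2.13 on the normalized log2 scale and psaB 0.54. The genotype differences were -0.39 ± 0.61 (SE) for psaA and 0.03 ± 0.18 (SE) for psaB, and the sign of psaB turned under 4 other settings.

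The gene psaI, for a small subunit, had the largest genotype difference in photosystem I. Its intensity was 463, 468, 634 and 462 in wild type and 589, 806 and 776 in myb5. Wild-type replicate 3 lay above myb5 replicate 1, and the other wild-type arrays lay below all myb5 arrays. The log2 difference of psaI was 0.52 ± 0.17 (SE), at an unadjusted limma p of 0.019 and an adjusted p of 1.00, and it was 0.47 with the term for the 3 arrays. The gene for the iron-sulphur subunit, psaC, had an intensity of 57.6, 43.0, 36.5 and 17.2 in wild type and of 60.7, 59.4 and 35.8 in myb5. For psaJ, another small subunit, the span over the arrays was the largest among the 43 members, and its values were 278, 691, 216 and 231 in wild type and 472, 140 and 410 in myb5. High and low arrays of psaJ occurred in both genotypes, and its log2 difference was -0.05 ± 0.52 (SE).

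In the cytochrome b6f complex, which links the photosystems, the median log2 difference was 0.17, with 4 of 6 genes above 0. The genotypes overlapped for all 6, where 2.18% of all probe sets were higher in myb5 and 2.17% lower without overlap. None passed in limma, and 0 had an unadjusted p under 0.05, where 1.8% of all were higher and 1.66% lower. With shares this small, 0 of 6 is not a result about these genes. The gene petB, for cytochrome b6, had an intensity of 3175, 3460, 1825 and 2142 in wild type and of 3443, 2585 and 2465 in myb5. It was high in the same 3 arrays, as were psbB, psbT and psbH of its operon. Its log2 difference was 0.19 ± 0.23 (SE). The fifth gene of the operon, petD, for subunit IV, was dim, at 18.6 to 30.1 over all arrays. The largest difference belonged to petG, a small subunit, with an intensity of 68.5, 101, 34.6 and 36.5 in wild type and of 53.1, 59.4 and 25.5 in myb5, and a log2 difference of -0.33 ± 0.35 (SE). It was -0.22 with the term for the 3 arrays, and became -0.087 if wild-type replicate 2 was left out and -0.069 if myb5 replicate 3 was. Cytochrome f, encoded by petA, had a lowest and highest wild-type intensity of 1074 and 1714 and, in myb5, of 1269 and 2211.

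The ATP synthase makes ATP from the proton gradient, and 6 of its genes were measured. Of these, 3 were higher in all of the 3 arrays than in the other 4, where 11.6% of all probe sets were, namely atpA, atpH and atpI of 1 operon. The gene atpH, for the ring subunit c, had an intensity of 1110, 776, 549 and 395 in wild type and of 1004, 687 and 485 in myb5. The gene atpF, for a stator subunit in the same operon, had 819, 911, 398 and 448 in wild type and 1010, 908 and 570 in myb5. Its log2 difference of 0.44 (standard error 0.33) was the largest of the complex, and it was 0.57 with the term for the 3 arrays. The gene atpE, for subunit epsilon, had an intensity of 5062, 4849, 4371 and 5033 in wild type and of 6045, 6189 and 4574 in myb5, with a log2 difference of 0.22 (standard error 0.15). Its operon partner atpB, for the catalytic subunit beta, spanned 1.37 on the log2 scale over the arrays against 0.63 for atpE. The median log2 difference of the ATP synthase genes was 0.08. The genotypes overlapped for all 6, where 2.18% of all probe sets were higher in myb5 and 2.17% lower without overlap. At an unadjusted limma p under 0.05 there were 0 of the 6, where 1.8% of all were higher and 1.66% lower. With shares this small, 0 of 6 is not a result about these genes.

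The Rubisco large subunit gene rbcL had an intensity of 514, 538, 490 and 356 in wild type and of 488, 648 and 474 in myb5. The genotypes overlapped, and the log2 difference was 0.20 ± 0.19 (SE; limma adjusted p = 1.00).

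**Figure D2:**
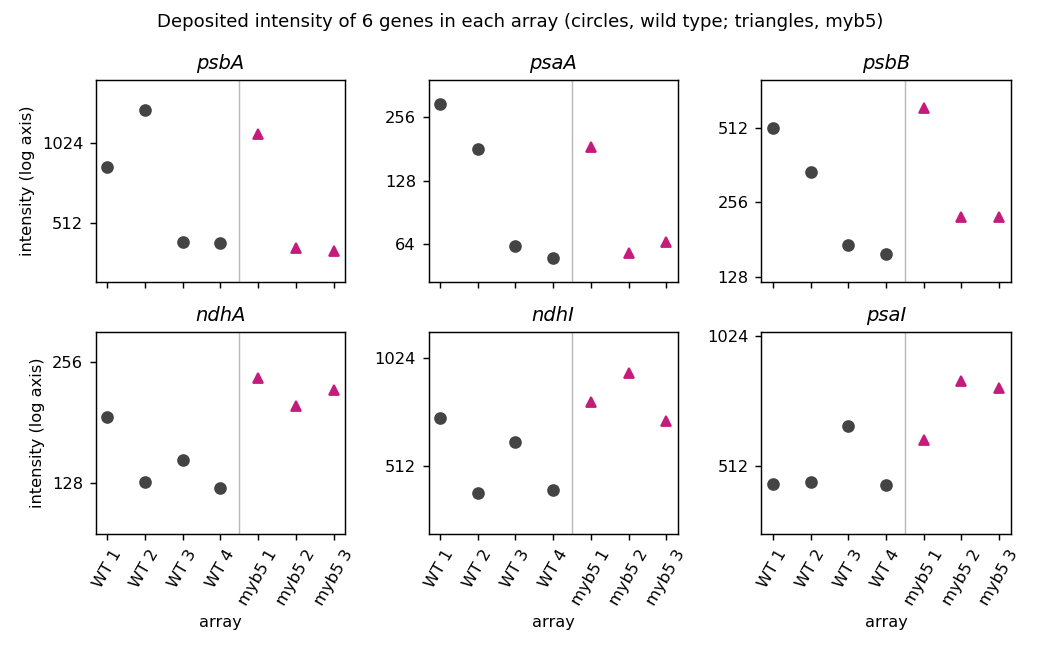
Deposited intensity (log axis, with a scale of its own for each gene) of psbA, psaA, psbB, ndhA, ndhI and psaI in each array (circles, wild type; triangles, myb5). For psbA, psaA and psbB the high arrays are WT 1, WT 2 and myb5 1, while for ndhA all 3 myb5 arrays lie above the 4 wild-type arrays.

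In the NDH complex 8 of 10 genes had a difference above 0, where 49.9% of all probe sets did. The median log2 difference was 0.24. None of the 10 was higher or lower in all of the 3 arrays than in the other 4, where 11.6% of all probe sets were higher and 13.8% lower. No ndh gene passed the threshold in limma. Of the 10, 3 were higher in myb5 at an unadjusted limma p under 0.05, where 1.8% of all probe sets were, out of 4 such members. The gene ndhA, for a membrane subunit, had an intensity of 186, 129, 146 and 124 in wild type and of 234, 199 and 218 in myb5. Every myb5 array lay above every wild-type array, with means of 146 ± 28.4 (SD, n = 4) and 217 ± 17.2 (SD, n = 3). The log2 difference was 0.51 ± 0.15 (SE), at an unadjusted limma p of 0.012 and an adjusted p of 1.00. It was 0.54 with the term for the 3 arrays (limma adjusted p = 0.91).

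The largest difference of the complex belonged to ndhI, for an iron-sulphur subunit, which had an intensity of 696, 429, 595 and 439 in wild type and of 772, 931 and 681 in myb5. Wild-type replicate 1 lay just above myb5 replicate 3, and the other wild-type arrays lay below all myb5 arrays. Its log2 difference was 0.59 ± 0.21 (SE), at an unadjusted limma p of 0.023 and an adjusted p of 1.00. The gene ndhJ, for a subunit of the arm that faces the stroma, had 242, 176, 186 and 186 in wild type and 303, 237 and 264 in myb5. Wild-type replicate 1 was again the one wild-type array inside the myb5 range, and the log2 difference was 0.40 ± 0.15 (SE), at an unadjusted limma p of 0.026 and an adjusted p of 1.00.

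Neighbours in the ndhH operon differed from each other. Next to ndhA and ndhI, ndhG and ndhE, for membrane subunits, had log2 differences of 0.27 and 0.49 with standard errors of 0.13 and 0.29. The gene ndhH, for a subunit of the stromal arm, had 0.20. At the other end of the operon ndhD, also for a membrane subunit, had -0.24 ± 0.21 (SE), from an intensity of 1178, 1244, 1206 and 1023 in wild type and of 1012, 672 and 1276 in myb5. The low value of ndhD lay in myb5 replicate 2, the array where ndhI and ndhE were highest among all 7. In the ndhC operon, ndhJ stood beside ndhC, a membrane subunit gene, at 1853, 1952, 1911 and 1737 in wild type and 2195, 1658 and 2248 in myb5, with a log2 difference of 0.17. The gene between them, ndhK, for an iron-sulphur subunit, had -0.01 ± 0.31 (SE). The probe set of ndhF, for a membrane subunit, was the one member with a mean intensity below the added constant of 16, at 3.07 to 8.75 over all arrays, so its level is not informative.

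Over all members, no gene of the photosynthetic apparatus or the NDH complex passed between the genotypes. In limma 0 of 43 members had an adjusted p under 0.05, where 1 of all probe sets (0.0044%) did. At an unadjusted limma p under 0.05, 4 members were higher in myb5, where 1.8% of all probe sets were, and 0 were lower, where 1.66% of all were. These 4 are ndhA, psaI, ndhI and ndhJ. The counts changed with the arrays used. With myb5 replicate 1 left out 4 members were higher, where 3.61% of all probe sets were, and 2 lower. Leaving out wild-type replicates singly gave 6 higher and 0 lower for the first, 2 and 0 for the second, 3 and 0 for the third, and 2 and 2 for the fourth. With the replicate number as a block 3 were higher, where 3.15% of all probe sets were, and 3 lower. The share of all probe sets that was lower is not given for these alternative fits, so their counts of lower members have no background. The genotypes did not overlap for 1 member on the normalized scale, ndhA, which was higher in myb5, where 2.18% of all probe sets were higher and 2.17% lower without overlap. In the deposited intensities 2 members did not overlap, ndhA and ndhG, both higher in myb5. On that scale 754 of all 22746 probe sets were higher and 356 lower. The members' median log2 difference was 0.08, against -0.00035 over all probe sets, and 27 of 43 lay above 0, where 49.9% of all probe sets did. Without myb5 replicate 1 the members' median was -0.04 with 19 above 0, and without wild-type replicate 4 it was -0.0033 with 21 above 0, so its sign rests on these arrays.

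**Figure D3:**
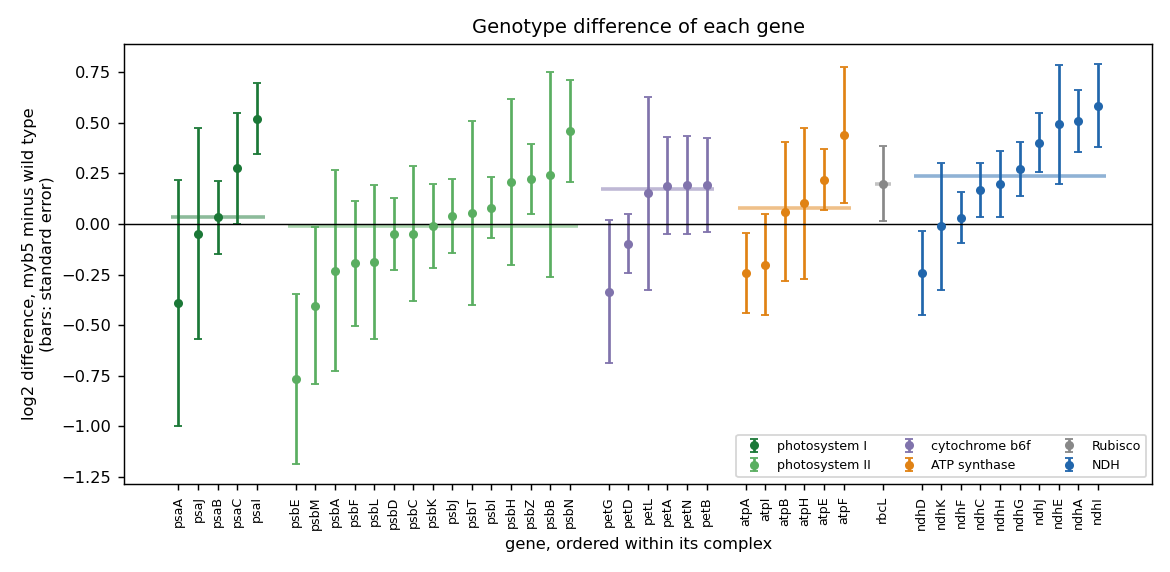
Log2 difference between the genotypes (myb5 minus wild type, normalized log2 scale) of each member, with the standard error of the limma fit as bars and the median of each complex as a horizontal line. The ndh genes have a median of 0.24, photosystem II genes lie on both sides of 0, and no gene passed the threshold.

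With a term for the 3 arrays, 31 of 43 members lay above 0 and the median was 0.17. The medians by complex were then 0.11 for photosystem I, 0.089 for photosystem II, 0.21 for the cytochrome b6f complex, 0.21 for the ATP synthase and 0.23 for the NDH complex, and rbcL stood at 0.22. The differences of ndhI and ndhJ were 0.59 and 0.44. In that fit 8 members had an unadjusted limma p under 0.05 as higher in myb5, where 2.86% of all probe sets did, and 0 as lower, where 2.63% of all did. They are ndhA, ndhJ, ndhI, ndhE, psaI, psbB, atpF and petB. None passed after adjustment, the lowest adjusted p being 0.91, while 0.0044% of all probe sets passed. Among myb5 replicates 2 and 3 with wild-type replicates 3 and 4 alone, 35 of 43 members lay above 0 with a median of 0.16, and the NDH median was 0.42. These arrays were normalized anew, and their fit was added after seeing the data. The share of all probe sets above 0 was not computed for either fit, so the counts of 31 and 35 have no background.

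The spread over arrays of either genotype was wide for the members. The highest and the lowest array were at least 2-fold apart on the normalized scale for 22 of 43 members, where 19.9% of all probe sets were. The median span was 1.25 for photosystem II, 1.13 for photosystem I, 1.08 for the ATP synthase, 0.97 for the cytochrome b6f complex and 0.77 for the NDH complex, against 0.67 over all probe sets. Of all 22746 probe sets 7025 had a mean intensity below the added constant of 16, against 1 of the 43 members. The constant narrows the span of such dim probe sets, and no comparison at like brightness was made. Of the 43 members, 13 were higher in all of the 3 arrays than in the other 4, where 11.6% of all probe sets were, and 0 were lower, where 13.8% of all were. The 13 are psaA, psbA, psbB, psbC, psbD, psbH, psbI, psbJ, psbT, petB, atpA, atpH and atpI. They hold no ndh gene and not rbcL. Without myb5 replicate 2 the count was 20, where 14.0% of all probe sets were higher. Leaving out an array cannot lower this count. The late maturation genes, already known to differ between arrays, followed the same arrays, as did the ratio of 1 GAPDH pair. Their part was not tested.

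Operons differed in how many of their genes were higher in the 3 arrays. In the psbB operon 4 of 5 genes were and in the atpI operon 3 of 4, where 11.6% of all probe sets were. In the psbD operon 2 of 3 were, namely psbD and psbC, for the D2 protein and the core antenna protein CP43; for psbD this holds on the normalized scale alone, since its deposited intensity of 82.8 in myb5 replicate 1 lay below the 85.7 of myb5 replicate 3. In the psaA operon and in the psbK operon 1 of 2 genes was higher, in the psbE operon 1 of 4, in the petL operon 0 of 3 and in the atpB operon 0 of 2. In the deposited intensities the psbK operon had 2 of 2 and the atpB operon 1 of 2, since psbK and atpB were then higher too. On either scale none of the 7 genes of the ndhH operon, psaC included, and none of the 3 of the ndhC operon separated the arrays. Inside the psbB operon lies psbN, read from the opposite strand and known in tobacco as the gene of an assembly factor, between psbT and psbH. Its values were 62.7, 45.7, 46.0 and 19.0 in wild type and 59.3, 68.5 and 73.3 in myb5, while psbT, for a small subunit, had 185, 162, 68.6 and 55.0 and then 186, 99.2 and 78.0. The high arrays of psbT are those of psbA, and the high arrays of psbN are not. The log2 differences between genotypes were 0.46 ± 0.25 (SE) for psbN and 0.05 ± 0.45 (SE) for psbT.

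Nearly all plastid genes outside the members had higher values in myb5, without passing. Of these 26 genes 25 had a log2 difference above 0, where 49.9% of all probe sets did, with a median of 0.45. At an unadjusted limma p under 0.05, 12 were higher in myb5, where 1.8% of all probe sets were. In that fit 0 were lower, and 0 passed after adjustment. The genotypes did not overlap for 11 of the 26, all higher in myb5, where 2.18% of all probe sets were. In the deposited intensities 10 of the 26 were higher without overlap, where 754 of all 22746 probe sets were. Medians were 0.67 for 7 large-subunit and 0.46 for 8 small-subunit ribosomal protein genes and 0.29 for 4 RNA polymerase genes. Of these 26, 1 was higher in all of the 3 arrays than in the other 4 and 3 were lower, where 11.6% and 13.8% of all probe sets were. Along the plastid chromosome the psbB operon, with differences from -0.10 to 0.24, adjoins a stretch from rpoA to rps19 that codes for polymerase and ribosomal proteins. For rpoA, the polymerase alpha subunit gene next to petD, the difference was 0.83 and for rpl22, a ribosomal protein gene of that stretch, 0.95. The ndh genes of the ndhH operon lie between ccsA, at 0.47, and rps15, at 0.66. Most probe sets of mitochondrion-encoded genes also had higher values in myb5, without passing. The 23 probe sets naming 1 such gene cover 16 genes, since nad1 and nad5 have more than 1, so they are not independent. Of the 23, 18 lay above 0, where 49.9% of all probe sets did, with a median log2 difference of 0.32. At an unadjusted limma p under 0.05, 5 were higher in myb5, where 1.8% of all were, and 0 lower, where 1.66% were. Of the 23, 7 had a mean intensity below 16. The difference between the members and these plastid and mitochondrial genes was not tested.

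**Figure D4:**
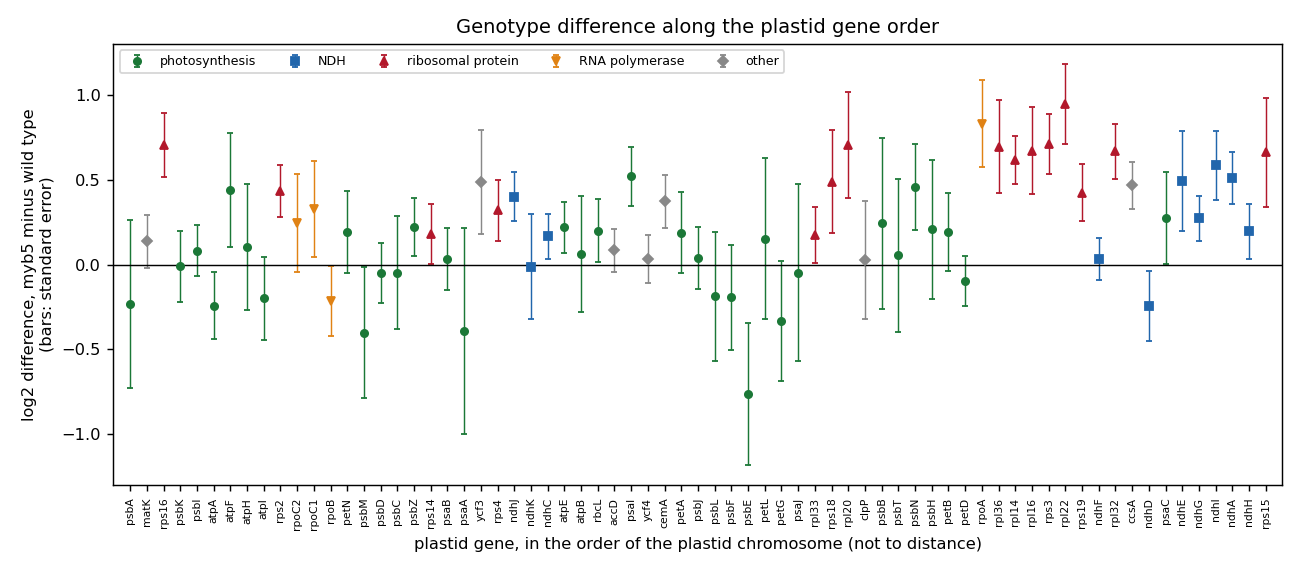
Log2 difference between the genotypes (myb5 minus wild type, with standard error) of 69 plastid genes in their order on the plastid chromosome, coloured by class. Ribosomal protein genes all lie above 0, with medians of 0.67 and 0.46, and photosynthesis genes lie on both sides of 0; no gene passed the threshold.

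Of the nuclear genes that build or serve the same complexes, a part was higher in the 3 arrays and none passed between genotypes. Of 139 nuclear genes found from 8 lists 24 had a probe set naming them alone, and 0 passed between genotypes. At an unadjusted limma p under 0.05 there were 0 of the 24 (lowest 0.094), where 1.8% of all probe sets were higher in myb5 and 1.66% lower. Their median log2 difference was -0.12, with 8 above 0. Of the 24, 11 were higher in all of the 3 arrays than in the other 4, where 11.6% of all probe sets were, and 0 were lower, where 13.8% of all were. These 11 include all 3 light-harvesting genes, both photosystem I genes and all 3 photosystem II genes measured. They also hold 1 of 3 electron transport and ATP synthase genes, 1 of 3 NDH genes and the 1 Rubisco gene measured. Of 9 genes for plastid RNA maturation 0 were among them. The antenna gene LHCB4.1 had an intensity of 2368, 3385, 1171 and 912 in wild type and of 2206, 1169 and 796 in myb5. A gene for the ATP synthase gamma subunit, ATPC1, had 2547, 2566, 1301 and 1250 in wild type and 2617, 1249 and 878 in myb5. For ATPC2 and PGRL1B of the same list the 3 arrays overlapped with the others on the normalized scale. ATPC2 had 115, 116, 91.3 and 123 in wild type and 98.4, 106 and 90.3 in myb5. The Rubisco activase gene RCA had 510, 573, 249 and 222 in wild type and 473, 217 and 145 in myb5, and rbcL, its plastid partner, is not among the members that separated those arrays.

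The 3 measured nuclear NDH genes were not alike. The gene NdhS, for a subunit that binds ferredoxin, had an intensity of 227, 191, 54.2 and 85.2 in wild type and of 109, 98.6 and 61.6 in myb5, and its log2 difference was -0.45 ± 0.45 (SE). It was higher in all of the 3 arrays, 2 of them wild type, than in the other 4. For NdhN and NdhL, whose proteins are further subunits, those arrays overlapped with the others, and the log2 differences were 0.04 and -0.11. Among genes for plastid RNA maturation, CRR28, an RNA editing factor known for ndh transcripts, had the lowest p, with a log2 difference of 0.22 at intensities of 9.16 to 21.7. None of the 21 nuclear genes for plastid transcription found in the gene table had a probe set naming it alone, so the polymerases and their sigma factors were not analysed here.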

How the data were processed

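Each sample was hybridised to 1 Affymetrix array, and the authors deposited a linear intensity for each probe set; their software is not stated in the labels. The mean after trimming 2% of probe sets at each end was 150.01 on all 7 arrays, so each had been scaled before deposit. No detection or saturation call was used, and the number of arrays limits precision. The 64 control probe sets were left out. Intensities were turned into log2(intensity + 16) and quantile normalized, which removes differences in overall brightness (deposited medians 49.0 to 50.8 for wild type, 52.2 to 54.4 for myb5). Differences on this log2 scale understate changes of dim probe sets.

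Genotypes were tested with limma (version 3.58.1, R 4.3.3), with genotype as the only term and Benjamini-Hochberg adjustment over 22746 probe sets at a threshold of 0.05. Overlap between arrays was read on the normalized scale. Names came from the array's annotation (13513 probe sets name 1 gene) and, by gene ID, from a RefSeq gene table of assembly TAIR10.1, used for names and gene order. The files name no build, so no coordinates are given. MYB5 itself was not analysed here.

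The members and gene lists were chosen with earlier results of these data known. In each complex the naming rule took the brightest probe set, the largest difference and members with an unadjusted p under 0.05. The fit was tested on simulated data, drawn independently for each probe set and array. The simulation did not set the 3 arrays apart from the others, so it does not show how the fit behaves on these data. Alternatives were other scalings, pseudocounts of 1 and 64, leaving out the dimmest 30% or 50%, the replicate number as a block, trend and robust moderation, array weights, a term for the 3 arrays and leaving out each array. Fits within each set of arrays, the medians by complex and the counts of members above 0 or without overlap were added after seeing the data.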

Additional observations from a re-analysis of the deposited data

Results flagged for a closer look

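Among the 43 members, a wild-type array far from the other 3 was found for 3 genes, and chance gives about 1 in 20 groups. For ndhJ, wild-type replicate 1 lay at 8.02 on the normalized log2 scale, where the rest of its genotype lay at 7.62 to 7.65, and its intensity of 242 lay within the myb5 range. For psaI, wild-type replicate 3 lay at 9.36, against 8.89 to 8.91. For ndhD, wild-type replicate 4 lay at 10.04, against 10.21 to 10.24.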

How the results depend on the processing

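No member passed under the 19 alternatives. The probe sets called over the whole array numbered 1, and 1 to 2 when each array was left out. They numbered 0 with the replicate block and 0 for myb5 replicates 2 and 3 against wild-type replicates 3 and 4 alone, which are fewer samples. The 0 for the remaining 3 arrays, where myb5 is 1 array assumed to vary like the wild type, says nothing about stability, for the members either. Deviations of same-numbered arrays correlated at 0.63, -0.30 and 0.55, which does not pair them, and with the replicate block the members' median was -0.0037. Leaving out each array gave a median of -0.04 to 0.17 for the members, -0.08 to 0.31 for photosystem I, -0.23 to 0.12 for photosystem II, 0.0012 to 0.23 for cytochrome b6f, -0.18 to 0.30 for the ATP synthase, 0.05 to 0.29 for rbcL and 0.22 to 0.30 for NDH. Members above 0 then numbered 19 to 31 and NDH members above 0 numbered 7 to 9, with no share over all probe sets computed for these fits. Members higher in the 3 arrays that stood apart numbered 14 to 20, where 13.2% to 15.4% of all probe sets were. Leaving out an array cannot lower that count, so it says nothing about stability. Without the dimmest 50% the NDH median was 0.40, with 5 genes above 0, since fewer ndh genes were then tested, and it was 0.42 among the 4 arrays alone. Among the 3 arrays alone the medians were -0.235 for cytochrome b6f and -0.082 for rbcL; the cause was not tested. The difference of psaB turned to -0.059 with median centring and ran from -0.077 to 0.188 when each array was left out, below 0 without wild-type replicate 3 (-0.063), myb5 replicate 1 (-0.077) and myb5 replicate 2 (-0.017), and that of petG to 0.041 among the 4 arrays alone; the cause was not tested. The dimmest 30% held 1 member and the dimmest 50% held 8. The differences of ndhA, ndhI, ndhJ and psaI kept their sign in all 19 alternatives.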

Other observations

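Plastid genes that help to build these complexes but fall outside the rule gave mixed values. The gene ccsA, known from green algae to be needed to attach haem to cytochrome f, had an intensity of 1502, 1629, 1420 and 1321 in wild type and of 1705, 1884 and 2307 in myb5. Every myb5 array of ccsA lay above every wild-type array, and the log2 difference was 0.47 ± 0.14 (SE; limma adjusted p = 1.00). Both ycf3 and ycf4 encode assembly factors of photosystem I, as known from green algae and tobacco. Their log2 differences were 0.49 ± 0.31 (SE) and 0.03 ± 0.14 (SE). On the normalized scale ycf4 was the 1 gene among the 26 other plastid genes that was higher in all of the 3 arrays that stood apart.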
